A study of Drosophila melanogaster with 12 samples.

Results

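The genes described here build the chromosomal side of the attachment between chromosomes and the spindle. They are 10 genes chosen by name, with no threshold on a measured value: *cid*, *cal1* and *Cenp-C* of the centromere, *Ndc80*, *Nuf2* and *Spc25* of the Ndc80 complex, and *BubR1*, *Bub1*, *Bub3* and *mad2* of the spindle checkpoint. All 10 were found by symbol and FBgn identifier among the 17737 genes of the RIP-seq table. All 10 had a row among the 6555 genes of the RNA-seq table, which lists genes that the authors called as different. Of the genes with 10 counts or more in all RIP-seq libraries, 65.5% had such a row. The 10 genes were chosen with earlier results of these data known, so no enrichment can be read from this. RIP-seq, which sequences the RNA that comes down with a protein on beads, was performed on ovaries of *Bam-fTRG-GFP* flies, in which a tagged genomic transgene makes Bam-GFP. The control was *Bam-Gal4 ::UASp-GFP*, in which the *bam* driver switches on GFP alone. There were 3 libraries of each, called Bam-GFP and GFP control below. RNA-seq was performed on sorted germ cells of *vas-GFP; bam_delta86/bam_delta86* flies, called *bam*-/- below, and of *vas-GFP* flies as the control, with 3 samples of each. All RNA-seq flies carried *vas-GFP*, which marks germ cells, and in both experiments each sample pooled the ovaries of many females. The age of the flies is not given in the sources used here. Nothing in the labels says that the 3 samples of a group came from separate crosses, so the spread between these samples may be technical.

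The centromere is the place on a chromosome where the kinetochore forms. In flies it is marked by Cid, the centromeric histone H3 variant known as CENP-A in other animals. The kinetochore binds microtubules through the Ndc80 complex, and the spindle checkpoint holds a cell in mitosis until every kinetochore is attached. Female germline stem cells divide asymmetrically in the niche, and their daughters need Bam to leave the stem cell state and to divide as a cyst, so all of these cells use this machinery. Bam acts after transcription together with RNA-binding partners, and the RIP-seq experiment addressed which transcripts associate with it. For these genes the question is whether their transcripts were more or less abundant on beads with Bam-GFP than on beads with GFP alone.

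None of the 10 transcripts passed the test between Bam-GFP and GFP control. The test was edgeR's quasi-likelihood test over all genes. Its standard errors (SE), intervals and p-values rested mostly on a spread shared among genes of similar level, not on a gene's own libraries. *cal1*, whose Bam-GFP libraries lay within 1.05-fold, had an SE of 0.31, and *Bub1*, at 2.37-fold, had 0.32. A gene was called at a Benjamini-Hochberg adjusted p under 0.05. At this threshold 0 of the 10 genes were called, against 2.2% of the 10971 genes tested. At an unadjusted p under 0.05 the count was also 0 of 10 with edgeR, against 9.57% of all genes tested. With DESeq2 it was 1 of 10, and the share over all genes was not counted there. Fitted log2 fold changes, given throughout as Bam-GFP over GFP control, were above 0 for 4 genes and below 0 for 6, and 47.8% of all genes tested were above 0. The median of the 10 was −0.11, beside −0.049 over all genes tested. Each of the 10 had 10 counts or more in all 6 libraries, although *cid* had only 15 in Bam-GFP 1 and 32 in GFP control 2. The gene that stood farthest from 0 was *Ndc80*, and it was also the only one of the 10 whose Bam-GFP and GFP control libraries did not overlap, beside 18.3% of genes with 10 counts or more in all libraries.

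**Figure D1:**
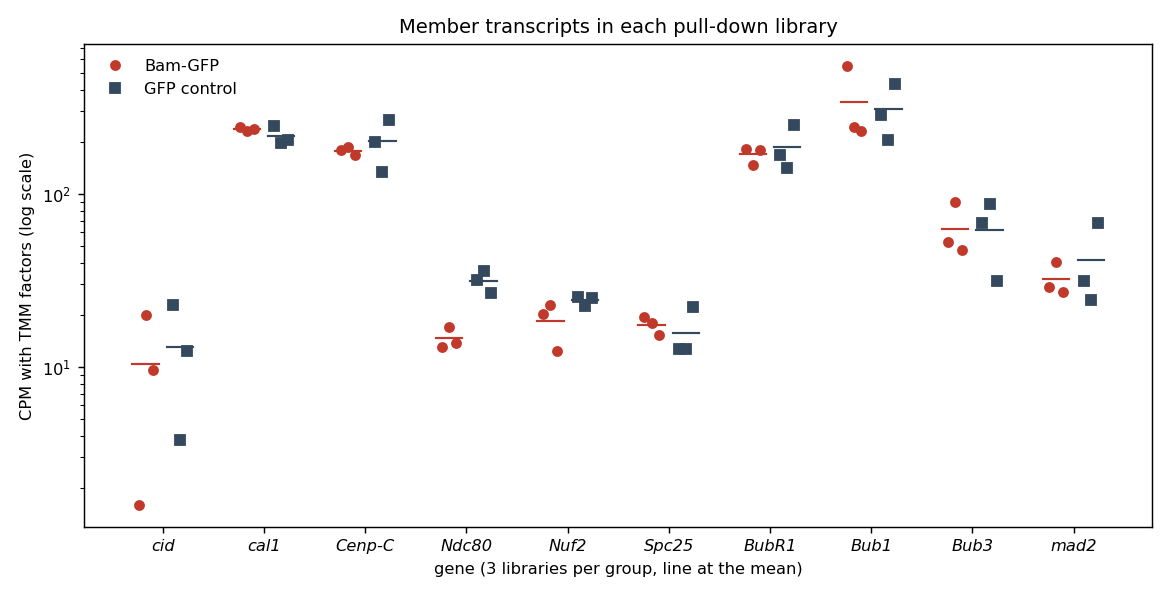
Level of each of the 10 transcripts in each RIP-seq library, in CPM (counts scaled to the library total, with TMM factors) on a log scale. Circles are the 3 Bam-GFP libraries, squares the 3 GFP control libraries, and lines the means. The *Ndc80* libraries separate by group (13.1 to 17.1 CPM in Bam-GFP, 26.6 to 35.8 CPM in GFP control), and the *cid* libraries spread over the widest range in both groups.

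Some features of the libraries bear on every value. Each held 7697440 to 12704088 counts on genes, which was 9.79 to 19.6% of the alignments in the table, while 79.3 to 89.6% had aligned to several places. Levels below are given as CPM, which are counts scaled to the total on genes of their library, with TMM factors of 0.807 to 1.13. The pull-downs were made from whole ovaries, in which less RNA per cell and fewer cells of a type cannot be told apart. Marker transcripts of follicle cells, the somatic cells around each egg chamber, summed to 6351 to 12948 CPM in Bam-GFP and 3069 to 5532 CPM in GFP control. The 5 of 9 called higher were *Yp2*, *Yp3*, *Vm26Aa*, *Vm26Ab* and *Cp36*. The others did not move alike, with log2 fold changes of 1.06 for *Cp38*, 0.056 for *Yp1*, −0.035 for *slbo* and −0.51 for *Fas3*. Escort and niche markers summed to 144 to 241 CPM in Bam-GFP and 72.1 to 95.3 CPM in GFP control. Of the 5 listed, 4 had counts, and *tj*, the 1 called higher, made up nearly all of the sum. Without *tj* it was 0.990 to 4.29 CPM in Bam-GFP and 2.75 to 10.7 CPM in GFP control, with overlap. Log2 fold changes were −1.65 for *ptc*, 1.56 for *hh* and −0.47 for *Wnt4*, none of them called and all from few counts. Germline markers summed to 3416 to 5680 CPM in Bam-GFP and 2629 to 3930 CPM in GFP control, with overlap. The 2 of 6 called higher were *osk* and *bam*, which the transgene of the Bam-GFP flies carries. Without *osk* the germline sum was 1597 to 1635 CPM in Bam-GFP and 1705 to 2431 CPM in GFP control, so the direction of this sum rested on *osk* alone. *orb* made up most of the sum without *osk*, with 898 to 989 CPM in Bam-GFP and 944 to 1712 CPM in GFP control, with overlap. Log2 fold changes were −0.40 for *orb*, −0.39 for *nos*, −0.27 for *grk* and 0.018 for *vas*, none of them called. Muscle markers (152 to 236 CPM in Bam-GFP, 162 to 591 CPM in GFP control) and hemocyte and fat body markers (3.53 to 4.70 CPM in Bam-GFP, 2.81 to 7.06 CPM in GFP control) had no called gene. The follicle cell sum, *tj*, *osk* and the germline sum without *osk* moved with the groups, and their part in the values of the 10 genes was not tested.

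The Ndc80 complex is the part of the outer kinetochore that holds the microtubule. *Ndc80* (FBgn0030500, chromosome X, 13609671 to 13612062 in the Release 6 assembly), which encodes the subunit with the main microtubule-binding head, had 13.1, 17.1 and 13.7 CPM in the 3 Bam-GFP libraries and 31.9, 35.8 and 26.6 CPM in the 3 GFP control libraries. Every Bam-GFP library lay below every GFP control library. Of the genes with 10 counts or more in all libraries, 9.76% showed such a separation toward lower values in Bam-GFP, so it is not a rare pattern in these data. The values rest on 123 to 163 counts per library in Bam-GFP and 249 to 337 in GFP control. The mean was 14.6 ± 2.16 CPM in Bam-GFP and 31.4 ± 4.57 CPM in GFP control (SD, n = 3 each).

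The fitted log2 fold change of *Ndc80* was −1.10 (SE 0.59, 95% interval −2.25 to 0.044), which is 0.465 times the GFP control level. The difference did not pass the threshold with edgeR's quasi-likelihood test (unadjusted p = 0.0594, adjusted p = 0.567). With 3 libraries against 3, an exact two-sided permutation test gave p = 0.1, the smallest it can give. The 17 alternatives run changed the scaling, filter, test or block or left out libraries. Fits with 1 library left out also had no block by replicate number. Under all 17 the log2 fold change stayed between −1.33 and −0.99. The unadjusted p ranged from 0.025 to 0.156, and the adjusted p from edgeR or DESeq2 from 0.22 to 0.95. The size of the difference was therefore steady among the settings, and none of them gave a call.

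*Nuf2* (FBgn0031886, chromosome 2L, 7064431 to 7065837), which encodes the partner of Ndc80 in the same coiled-coil arm, had 20.2, 22.9 and 12.4 CPM in Bam-GFP, against 25.4, 22.4 and 25.0 CPM in GFP control. The Bam-GFP 3 library lay below the other 5, and the groups overlapped through Bam-GFP 2 and GFP control 2. The log2 fold change was −0.44 (SE 0.60, 95% interval −1.62 to 0.74). It was below 0 in all 17 alternatives. *Spc25* (FBgn0087021, chromosome 3R, 12961745 to 12963249), which encodes a subunit at the chromosomal end of the complex, had 19.4, 17.8 and 15.2 CPM in Bam-GFP, against 12.6, 12.7 and 22.0 CPM in GFP control. Its libraries overlapped, with GFP control 3 highest of all, and the log2 fold change was 0.20 (SE 0.67, 95% interval −1.11 to 1.5). The whole span of *Spc25* lies inside that of *grsm*, and whether reads were assigned by strand is not given for RIP-seq in the sources used here, so its counts are uncertain.

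Summed over the 3 subunit genes, the level was 52.6, 57.8 and 41.3 CPM in Bam-GFP and 69.9, 70.8 and 73.7 CPM in GFP control. These sums did not overlap between the groups, but that rested on *Ndc80*. *Nuf2* and *Spc25* alone summed to 39.6, 40.7 and 27.6 CPM in Bam-GFP and 38.0, 35.1 and 47.1 CPM in GFP control, with overlap. Ratios between the subunit genes, taken within a library so that the scaling cancels, are of counts without correction for length. *Ndc80* counts were 0.672, 0.958 and 0.901 times those of *Spc25* in Bam-GFP and 2.53, 2.82 and 1.21 times in GFP control. *Ndc80* thus had fewer counts than *Spc25* in every Bam-GFP library and more in every GFP control library. *Ndc80* counts were 0.647, 0.746 and 1.11 times those of *Nuf2* in Bam-GFP and 1.26, 1.60 and 1.06 times in GFP control, with overlap.

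The same kind of ratio was taken over all 10 genes. *Ndc80* counts were 0.0102, 0.0171 and 0.0148 times the summed counts of the other 9 genes in Bam-GFP and 0.0302, 0.0432 and 0.0203 in GFP control, without overlap. Of its ratios to the 9 genes taken singly, 4 separated the groups (those to *cal1*, *Cenp-C*, *Spc25* and *Bub3*). Among the 36 pairs without *Ndc80*, 1 did. These sums and ratios were chosen after the values were seen, and they describe the libraries with no test. *Ndc80* is the gene whose own groups separate, so its ratios partly restate that separation and add no support to it. The share over all pairs of genes was not counted.

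**Figure D2:**
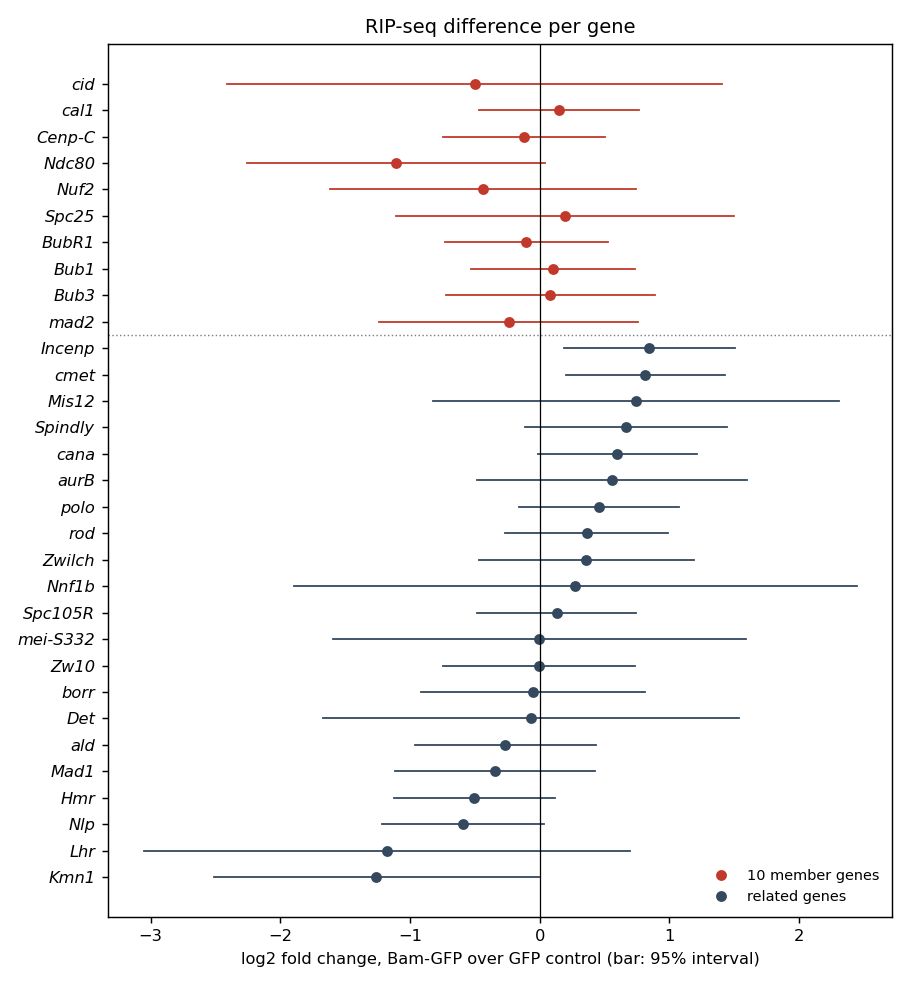
Log2 fold change, Bam-GFP over GFP control, of the 10 genes (red, upper rows) and of 21 related kinetochore genes with 10 counts or more in all libraries (dark, lower rows). Points are edgeR estimates and bars 95% intervals, and all 10 intervals of the upper rows reach across 0, with *Ndc80* at −1.10 the farthest from it.

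The centromere genes differed widely in how well their libraries agreed. *cal1* (FBgn0038478, chromosome 3R, 17088280 to 17091938) encodes the assembly factor that loads Cid into fly centromeres. It had 243, 232 and 237 CPM in Bam-GFP, against 246, 196 and 204 CPM in GFP control. The Bam-GFP libraries lay within 1.05-fold of each other and inside the range of the GFP control libraries. Its fitted log2 fold change was 0.15 (SE 0.31, 95% interval −0.47 to 0.76), so that a change beyond 1.70-fold upward or to below 0.721 times lies outside the interval.

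*cid* (FBgn0040477, chromosome 2R, 13485617 to 13486631), the gene of the centromeric histone itself, was the least reproducible. It had 1.59, 20.0 and 9.58 CPM in Bam-GFP, from 15, 162 and 114 counts. In GFP control it had 22.8, 3.75 and 12.4 CPM, from 241, 32 and 116 counts. The highest library stood 12.6 times above the lowest in Bam-GFP and 6.09 times in GFP control, and both groups covered much the same range.

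So wide a spread was uncommon. Among the 6335 genes with 10 counts or more in all libraries, 1.03% spread as much as *cid* within Bam-GFP and 2.48% within GFP control. The median gene spread 1.89-fold within Bam-GFP and 1.66-fold within GFP control. This comparison was made after the values of *cid* were seen. The log2 fold change was −0.50 (SE 0.97, 95% interval −2.41 to 1.41), the widest interval of the 10. Leaving out libraries moved it between −2.05 and 0.998, and it was above 0 without Bam-GFP 1 (0.18), without GFP control 1 (0.36) or without both (0.998). No direction can be given for *cid* at this precision.

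*Cenp-C* (FBgn0266916, chromosome 3R, 8564105 to 8569248) encodes the protein that joins Cid nucleosomes to the kinetochore. It had 179, 185 and 168 CPM in Bam-GFP, against 200, 134 and 268 CPM in GFP control. The Bam-GFP libraries again lay within the range of the GFP control libraries, and the log2 fold change was −0.12 (SE 0.32, 95% interval −0.75 to 0.51). Summed over the 3 centromere genes, the level was 424, 437 and 415 CPM in Bam-GFP and 468, 334 and 485 CPM in GFP control. *cal1* and *Cenp-C* supplied nearly all of both sums.

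The checkpoint genes included the transcript with the highest level of the set per kilobase. *Bub1* (FBgn0031696, chromosome 2L, 5278865 to 5283283), which encodes the kinase that gathers checkpoint proteins at kinetochores, had 548, 244 and 231 CPM in Bam-GFP, against 286, 206 and 431 CPM in GFP control. Each group held 1 library well above its others, Bam-GFP 1 and GFP control 3. The log2 fold change was 0.10 (SE 0.32, 95% interval −0.53 to 0.73), and leaving out libraries moved it between −0.37 and 0.60. *BubR1* (FBgn0263855, chromosome 2R, 5969099 to 5974385), whose product inhibits the anaphase-promoting complex within the checkpoint, had 182, 147 and 179 CPM in Bam-GFP, against 168, 141 and 249 CPM in GFP control. These ranges overlapped, with a log2 fold change of −0.10 (SE 0.32, 95% interval −0.73 to 0.53).

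*Bub3* (FBgn0025457, chromosome 3R, 29674007 to 29675421) encodes the adaptor that carries Bub1 and BubR1 to kinetochores. It had 52.4, 89.1 and 47.2 CPM in Bam-GFP, against 67.4, 87.2 and 31.5 CPM in GFP control. The number 2 library was the highest in each group, and the log2 fold change was 0.083 (SE 0.41, 95% interval −0.72 to 0.89). *mad2* (FBgn0035640, chromosome 3L, 5812135 to 5813093) encodes the checkpoint protein that sequesters the activator of the anaphase-promoting complex. It had 28.8, 40.5 and 27.0 CPM in Bam-GFP, against 31.3, 24.4 and 68.2 CPM in GFP control. GFP control 3 stood above the other 5 libraries, and the log2 fold change was −0.24 (SE 0.51, 95% interval −1.24 to 0.76).

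The 4 checkpoint genes together had 811, 520 and 484 CPM in Bam-GFP and 552, 459 and 780 CPM in GFP control. Without *Bub1* the sums were 263, 276 and 253 CPM in Bam-GFP and 267, 253 and 349 CPM in GFP control. *Bub1* thus made the high sum of Bam-GFP 1, whereas GFP control 3 was also high in *BubR1* and *mad2*. For *cid* and these checkpoint genes alike, the libraries of one group differed by more than the group means did. GFP control 2 was the lowest of the 6 libraries for 5 of the 10 genes (*cal1*, *Cenp-C*, *BubR1*, *Bub1* and *mad2*), and GFP control 3 was the highest for 4 (*Cenp-C*, *Spc25*, *BubR1* and *mad2*).

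Scaling by library size only lowered all genes together, with the median of all genes at −0.26, and the other 16 alternatives were read for each gene. Over these the log2 fold change kept to the narrowest ranges for *cal1* (0.076 to 0.26) and *Ndc80* (−1.23 to −0.99), and *cid* had the widest (−2.05 to 0.998). *Nuf2* stayed below 0, *Spc25* changed sign in 1 of the 16, and each of the other 6 genes in 2 or 3.

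**Figure D3:**
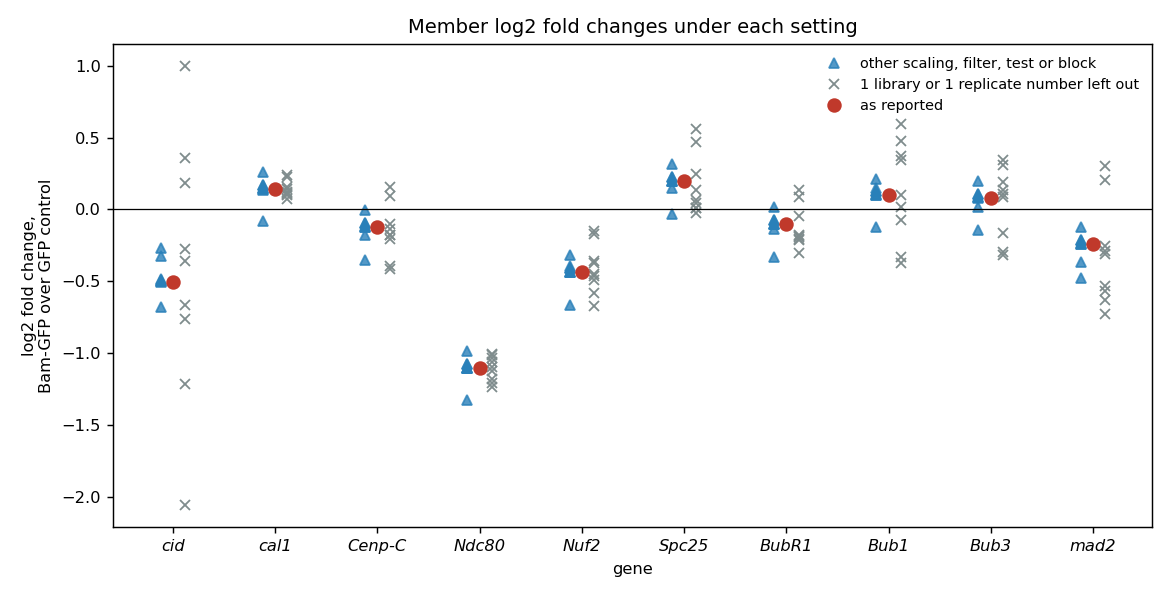
Log2 fold change, Bam-GFP over GFP control, of each of the 10 genes as reported (circles), with another scaling, filter, test or block (triangles), and with 1 library or 1 replicate number left out (crosses). Fits with 1 library left out also had no block. *Ndc80* stays between −1.33 and −0.99, whereas *cid* runs from −2.05 to 0.998.

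The order of the transcripts was compared per kilobase of gene span, because longer genes collect more reads. As the mean of the 6 RIP-seq libraries, *Bub1* was highest with 73.4 ± 30.7 CPM per kb (SD, n = 6), followed by *cal1* with 61.9 ± 5.69 CPM per kb. *Bub3* (44.2), *mad2* (38.2), *Cenp-C* (36.8) and *BubR1* (33.6 CPM per kb) formed a middle group. *Nuf2* (15.2), *cid* (11.5), *Spc25* (11) and *Ndc80* (9.63 CPM per kb) were lowest. Among neighbours in this order, *BubR1* and *Nuf2* were the only ones whose ranges over the 6 libraries did not overlap. All 3 subunit genes of the Ndc80 complex thus lay below this step, and all 4 checkpoint genes above it. The span includes introns, so the levels of genes with long introns are understated.

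In the sorted germ cells, the authors' deposited table gives a mean normalized count over all 6 RNA-seq libraries, *bam*-/- and *vas-GFP* together. No error is given for these means, since no values of single RNA-seq libraries and no standard errors of the authors' comparison were used here. The depth of the RNA-seq libraries is not known. The authors' mean was 5114 for *Cenp-C*, 4167 for *Bub3* and 4131 for *BubR1*, and it was 3061 for *Bub1*, 2408 for *Ndc80* and 2014 for *cal1*. It was 1555 for *Nuf2*, 1297 for *mad2*, 956 for *Spc25* and 300.5 for *cid*, beside a median of 1357 over the listed genes. Among the 10, *cid* was the lowest. The authors' table lists the genes that they called as different between *bam*-/- and *vas-GFP*, so that having a row and the median over listed genes both depend on that call. Its fold changes and p-values were not used here, and the size and direction of any difference between the genotypes were therefore not analysed here.

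Per kilobase of gene span, the authors' mean in RNA-seq was highest for *Bub3* (2945), *mad2* (1353), *Nuf2* (1105) and *Ndc80* (1007). It was 994 for *Cenp-C*, 781 for *BubR1*, 693 for *Bub1*, 635 for *Spc25*, 550 for *cal1* and 296 for *cid*. The order differed from that in RIP-seq. *cal1* stood below 8 of the others in the germ cells and below *Bub1* alone in the pull-downs, in Bam-GFP and in GFP control alike. *Ndc80* stood below 3 of the others in the germ cells. In the pull-downs its place depended on the group, since it was lowest of the 10 in Bam-GFP (6.11 CPM per kb) but stood above *cid* (12.8) and *Spc25* (10.5) in GFP control (13.1 CPM per kb). Over the 10 genes Spearman's rho between both levels was 0.091, given as a description, since the genes share libraries and spans. Sorted germ cells and pull-downs from whole ovaries differ in cells, in the RNA purified and in scaling, and these cannot be told apart here.

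**Figure D4:**
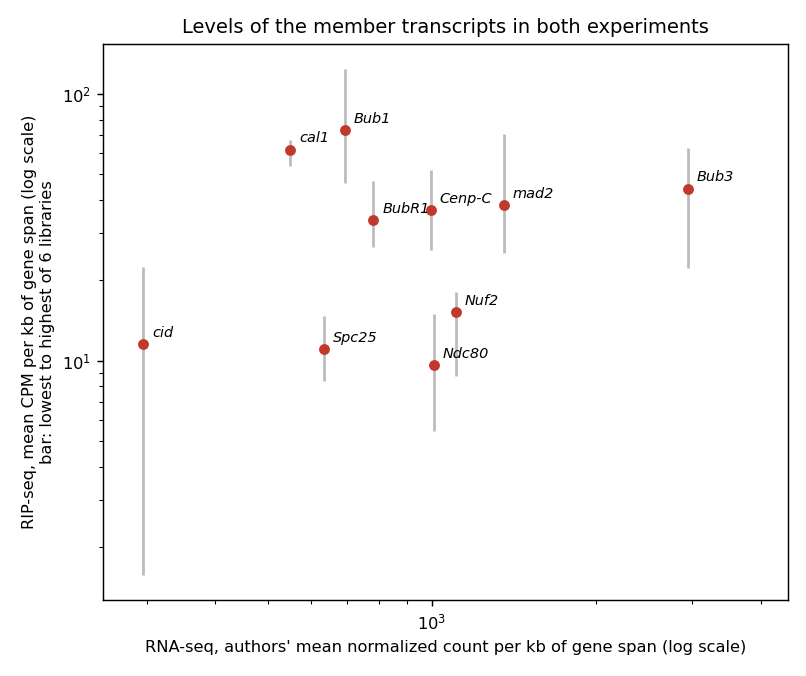
Level of the 10 transcripts per kilobase of gene span, as the authors' mean normalized count in RNA-seq of sorted germ cells (horizontal, log scale) and as the mean CPM in RIP-seq (vertical, log scale). Bars span the lowest to the highest of the 6 RIP-seq libraries. The 4 lowest transcripts in RIP-seq, *Nuf2*, *cid*, *Spc25* and *Ndc80*, lie between 9.63 and 15.2 CPM per kb, and *Bub3* lies farthest to the right.

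A wider list of 22 genes that work at the kinetochore and centromere was examined in the same fit. None was called at an adjusted p under 0.05 with edgeR, 2 were higher and 1 lower in Bam-GFP at an unadjusted p under 0.05, beside 5.54% and 4.03% of all genes tested. DESeq2 called 0 of them at an adjusted p under 0.05, beside 304 genes called higher and 104 lower among the 10971 tested. Their median log2 fold change was 0.20, with 12 genes above 0 and 10 below. The lowest adjusted p among them was 0.201 from edgeR.

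Among the other outer kinetochore genes, *Kmn1*, which encodes a fly kinetochore protein of the network that anchors the Ndc80 complex, resembled *Ndc80* in its values. It had 10.6, 16.6 and 7.90 CPM in Bam-GFP, against 29.2, 25.4 and 25.7 CPM in GFP control. The groups did not overlap, and the log2 fold change was −1.26 (SE 0.64, unadjusted p = 0.0484 and adjusted p = 0.511 from edgeR). A neighbour, *CG11699*, overlaps 31.7% of the span of *Kmn1*, so its counts are uncertain. *Mis12*, which encodes a subunit of the complex between Cenp-C and Ndc80, had 12.6, 18.8 and 9.66 CPM in Bam-GFP, against 11.3, 6.80 and 6.31 CPM in GFP control, with overlap and a log2 fold change of 0.74 (SE 0.80). *Nnf1a* had 0 to 14 counts in a library, too few for a fold change to be read.

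Of the other checkpoint genes, *Spindly*, which encodes an adaptor for dynein at kinetochores, had 98.2, 65.8 and 99.9 CPM in Bam-GFP, against 51.0, 54.3 and 58.6 CPM in GFP control. Every Bam-GFP library lay above every GFP control library, a separation shown by 8.51% of genes with 10 counts or more in all libraries. Its fitted log2 fold change was 0.67 (SE 0.40, adjusted p = 0.69 from edgeR). *Mad1*, which encodes the kinetochore anchor of Mad2, had 90.0, 42.7 and 65.8 CPM in Bam-GFP, against 79.5, 74.1 and 88.2 CPM in GFP control, with overlap and a log2 fold change of −0.35 (SE 0.39).

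The chromosomal passenger complex corrects faulty attachments at the inner centromere. *Incenp*, its scaffold gene, had 609, 117 and 149 CPM in Bam-GFP, against 135, 142 and 94.3 CPM in GFP control. A single library, Bam-GFP 1, stood apart. The log2 fold change was 0.84 (SE 0.34, unadjusted p = 0.0117 and adjusted p = 0.236 from edgeR), and it was 0.11 without Bam-GFP 1. It was 1.08 to 1.62 with any other single library left out and 1.24 with no replicate block. Fits with 1 library left out also had no block, so both changes cannot be told apart in them. *Incenp* passed the threshold in 4 of the 17 alternatives, at the lowest with an adjusted p of 0.000211 from edgeR without Bam-GFP 2. *Det*, the gene of its survivin-like subunit, had 10.4, 9.53 and 9.16 CPM in Bam-GFP, against 7.29, 17.6 and 8.24 CPM in GFP control, and its log2 fold change was −0.070 (SE 0.82).

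*cmet*, one of the adjacent pair of genes for CENP-E-like kinesins, had 1239, 540 and 1332 CPM in Bam-GFP, against 647, 335 and 755 CPM in GFP control. The Bam-GFP 2 library lay among the GFP control libraries. The log2 fold change was 0.81 (SE 0.31, unadjusted p = 0.00936 and adjusted p = 0.201 from edgeR). It was 1.15 without Bam-GFP 2 and with no block, the only alternative that passed the threshold (adjusted p = 0.0317 from edgeR). With no block alone it was 0.84. Its related neighbour *cana* had 924, 534 and 842 CPM in Bam-GFP, against 533, 376 and 600 CPM in GFP control. Reads that aligned to both genes were left out of the counts of either. *mei-S332*, which encodes the protector of centromeric cohesion, had 10.9, 15.8 and 7.81 CPM in Bam-GFP and 15.5, 5.63 and 14.6 CPM in GFP control, and no direction could be given. *Vrp1* overlaps 18.7% of the span of *mei-S332*.

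Finally, all 3 genes listed for partners of the Cid chaperone and of centromeric heterochromatin had log2 fold changes below 0. *Lhr*, which encodes a heterochromatin protein, had 3.93, 3.34 and 6.81 CPM in Bam-GFP, against 8.34, 15.5 and 8.24 CPM in GFP control. The groups did not overlap, at a log2 fold change of −1.18 (SE 0.96). *Hmr*, which encodes the partner of Lhr, had 149, 170 and 191 CPM in Bam-GFP, against 273, 190 and 266 CPM in GFP control. Its groups overlapped through Bam-GFP 3 and GFP control 2 alone, at a log2 fold change of −0.51 (SE 0.32). *Nlp*, a nucleoplasmin family gene, completed this group with 779, 711 and 399 CPM in Bam-GFP, against 791, 851 and 1139 CPM in GFP control, also without overlap, although neighbours cover 58.1% of the span of *Nlp* and its counts are uncertain. In the wider list 1 gene was thus separated upward (*Spindly*) and 3 downward (*Kmn1*, *Nlp* and *Lhr*), beside the 18.3% given above for either direction.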

How the data were processed

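Per the submitters' notes and the paper's methods, the authors aligned the reads with STAR 2.4.0 to the FlyBase annotation and counted them per gene with HTSeq 0.11.0. The authors' deposited RIP-seq table holds raw counts for each library, with a fold change and p-value of their own paired test. Its column names match the labels by group, and libraries are numbered as the columns are. For RNA-seq, the deposited table gives the authors' mean normalized signal over all libraries for the 6555 genes they called, with the log2 fold change, standard error, statistic and p-values of their DESeq2 comparison. The comparison columns of both tables were not used. RNA-seq was not refitted, since no values of single libraries were used here.

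The 10971 of 17737 genes with at least 1 count in any RIP-seq library were normalized with TMM and tested with edgeR 4.0.16 (quasi-likelihood, robust, R 4.3.3), two-sided, with the replicate number as a block, after the paired test in the study's methods, and Benjamini-Hochberg adjustment over all genes. Lines that name no gene were left out. They held 80.4 to 90.2% of the alignments of a library, mostly alignments to several places, which is not a share of its reads. Standard errors came from the F statistic. DESeq2 1.42.0, other scalings and filters, no block and left-out libraries served as alternatives. Fits with 1 library left out had no block, and fits with a replicate number left out kept it. The fit was tested on simulated data. There it called 4 of 78 genes changed by a log2 fold change of 1, 18 of 53 changed by 2 and 40 of 62 changed by 3. The changed genes were drawn at random from all 10971 genes, of which 6335 had 10 counts or more in all libraries. No replicate effect was simulated, so these rates are not those for the 10 genes.

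The members and lists were chosen with earlier results of these data known. All 10 genes are named. Of the 22 related genes, those with an unadjusted p under 0.05 and the highest and lowest log2 fold change of each role group with at least 10 counts in every library are named, and *Nlp*, *cana* and *Nnf1a* were added after their values were seen. Gene spans are from the RefSeq annotation of the Release 6 assembly. The spans of *cal1*, *Nuf2*, *Bub3* and *mad2* overlap a neighbour by 37 to 406 bases, which can affect their counts where reads are not assigned by strand.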

Additional observations from a re-analysis of the deposited data

How the results depend on the processing

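With 3 libraries a group, intervals were wide, and a missed threshold does not show equal levels. None of the 10 genes was called at an adjusted p under 0.05 by edgeR or DESeq2 under any alternative run. At an unadjusted p under 0.05, 1 of them (*Ndc80*) was lower in Bam-GFP with library size only, with DESeq2 and with no replicate block. Library size only separated 2 of them downward. The shares over all genes in these settings were not counted, so these counts cannot be set beside a background. Library size only moved the median of all genes to −0.26, and gave log2 fold changes of −0.079 for *cal1*, −0.031 for *Spc25*, −0.12 for *Bub1* and −0.14 for *Bub3*. Totals with reads aligned to several places, chosen after seeing the data, gave 0.016 for *BubR1*, 0.058 for *Det* and 0.13 for *mei-S332*. *mei-S332* was 0.026 with RLE size factors, 0.025 with DESeq2 and 0.0020 with edgeR's filter. The causes were not tested.

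Of the 22 related genes, 0 were lower at an unadjusted p under 0.05 with RLE size factors, 3 with library size only and 0 with totals to which reads aligned to several places were added. With library size only 1 was higher, and with edgeR's filter 1. The shares over all genes at an unadjusted p were not counted in these settings, so these counts have no background. With no replicate block 1 was called at an adjusted p under 0.05 (*Incenp*, 1.24). Deviations of same-numbered libraries from their group means correlated by −0.15, 0.23 and −0.051 over 6335 genes, which gives no sign that the samples are paired by number. Over all genes, 189 were called higher and 52 lower with the replicate block, and 227 higher and 73 lower without it.

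With libraries or replicate numbers left out, 0 to 2 of the related genes were called at an adjusted p under 0.05, and 0 to 4 were higher and 0 to 1 lower at an unadjusted p under 0.05. The 2 calls came without Bam-GFP 2, where 330 genes were called higher and 150 lower among the 10657 tested. Shares over all genes at an unadjusted p were not counted with libraries left out. The median of the 10 genes ranged from −0.35 to 0.098 and that of the related genes from −0.044 to 0.36. Log2 fold changes ranged from −2.05 to 0.998 for *cid*, −0.41 to 0.16 for *Cenp-C*, −0.025 to 0.56 for *Spc25*, −0.30 to 0.13 for *BubR1*, −0.37 to 0.60 for *Bub1*, −0.32 to 0.35 for *Bub3*, −0.73 to 0.31 for *mad2*, −0.41 to 0.33 for *Det* and −0.70 to 0.49 for *mei-S332*. A planned correction for transcript length was not run, since the annotation used gives gene spans.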
